A study of Schizosaccharomyces pombe with 21 samples.

Results

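Transcripts of 5 genes that act in the switch from growth to sexual differentiation of the fission yeast Schizosaccharomyces pombe were followed through 21 RNA-seq libraries. The genes were ste11 (SPBC32C12.02), mei2 (SPAC27D7.03c), pat1 (SPBC19C2.05), rst2 (SPAC6F12.02) and zfs1 (SPBC1718.07c). They were picked out by locus identifier and are 5 of the 6988 loci in each of 2 count tables. All 5 passed the filter on low counts in both tables.

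Poly(A)+ RNA was sequenced from haploid h+ cells in log phase at 30 °C, with 3 biological replicates per group. The asp1 experiment, in ePMGT medium (a synthetic minimal glutamate medium with thiamine), compared wild type (asp1-WT) with STF6 (asp1-W386*) and STF9 (asp1-W493*). Both of these are nonsense alleles, linked to a hygMX marker, that truncate the C-terminal pyrophosphatase domain of Asp1, the enzyme that makes and destroys the inositol pyrophosphate signal IP8. The kcs1 experiment, in YES medium (yeast extract with supplements), compared kcs1-WT with the missense alleles kcs1-R332T, kcs1-L338R and kcs1-E834K of Kcs1, the kinase that makes IP7, the precursor of IP8. The wild type and mutant kcs1 alleles were all placed at the locus with a foreign ADH1 terminator and a kanMX marker. The strains that the paper lists carry auxotrophic alleles of leu1, ura4, his3 and ade6. Each mutant was 1 strain, so an effect of its allele cannot be told apart from another difference of that strain. By the labels, asp1-WT replicate 1 was strain BS216 and the other 2 replicates were AS478. The paper lists BS216 with a hygMX marker linked to asp1-WT and does not list AS478. The 2 experiments differ in medium, marker and background, so their levels are set side by side and were never tested against each other.

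Ste11 is an HMG-box transcription factor that binds TR boxes and turns on the genes of the pheromone response, mei2 and its own gene. Mei2 is an RNA-binding protein needed to start meiosis, and Pat1 is the protein kinase that holds both Ste11 and Mei2 inactive in growing cells. Rst2 is a zinc-finger activator of ste11 that protein kinase A keeps in check, and Zfs1 is a CCCH zinc-finger protein that binds AU-rich mRNA and is needed for efficient mating. Nutrient signals through cAMP and TOR hold the switch off, and the stress-activated MAP kinase Sty1 with the transcription factor Atf1 favours it.

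The stretches just before the annotated transcript starts of ste11 and mei2 are shown because these 2 genes carried most of the changes below and share motifs for the same pair of factors. Each runs 5′ to 3′ on the same strand as the transcript over 300 bases of RefSeq assembly ASM294v3. The stretch of ste11 is at chrII:3983076-3983375 (+ strand) and that of mei2 at chrI:4515026-4515325 (- strand). Capitals mark TTCTTTGTT, the core of the TR box bound by Ste11, and CCCCTC, the stress-response element bound by Rst2. No 2 marked sites overlap.
ste11: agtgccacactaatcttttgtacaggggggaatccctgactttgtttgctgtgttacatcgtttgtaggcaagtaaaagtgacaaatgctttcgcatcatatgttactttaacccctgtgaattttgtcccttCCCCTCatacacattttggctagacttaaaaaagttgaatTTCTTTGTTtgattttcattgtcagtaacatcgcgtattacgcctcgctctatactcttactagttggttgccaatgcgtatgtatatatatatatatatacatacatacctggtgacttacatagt
mei2: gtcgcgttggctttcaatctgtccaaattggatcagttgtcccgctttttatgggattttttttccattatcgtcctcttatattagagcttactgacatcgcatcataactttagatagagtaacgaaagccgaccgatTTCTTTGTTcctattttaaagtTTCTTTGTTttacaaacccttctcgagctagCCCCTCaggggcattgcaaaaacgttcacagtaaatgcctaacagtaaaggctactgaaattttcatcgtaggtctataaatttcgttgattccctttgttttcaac
The TR box core began 127 bases before the ste11 start, and 160 and 138 bases before the mei2 start. CCCCTC began 167 bases before the ste11 start and 107 bases before that of mei2. Searched on both strands, TTCTTTGTT lay in 2.02% and CCCCTC in 1.92% of the 300-base windows of 5144 coding genes. Neither motif was in the windows of pat1, rst2 or zfs1, and TGACGT, the core of the element bound by Atf1-Pcr1, was in none of the 5 windows and in 6.05% of all. No leader is annotated for pat1, so its window ends at the start codon. A match here is a description of letters, and no binding was measured.

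Total counts ran from 19515604 to 35919903 per library. Transcripts of the allele-bearing genes were present throughout, at 1725 to 2733 normalized counts for asp1 in the asp1 experiment and at 1855 to 2393 for kcs1 in the kcs1 experiment, which cannot check a point mutation. For the label h+, RPKM (reads scaled to exon length and library size) of map3, the receptor of P cells for M-factor, averaged 24.0 in asp1-WT and 9.55 in kcs1-WT. The M-factor genes mfm1, mfm2 and mfm3, which M cells use, averaged 1.25, 9.15 and 4.53 in asp1-WT, while mam1, the M-factor exporter gene, averaged 18.9. Of the 8 M markers, mat1-Mc and mat1-Mi were at 0 in every library. Whether reads could be assigned to these loci was not tested. The marker levels do not decide the mating type.

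**Figure D1:**
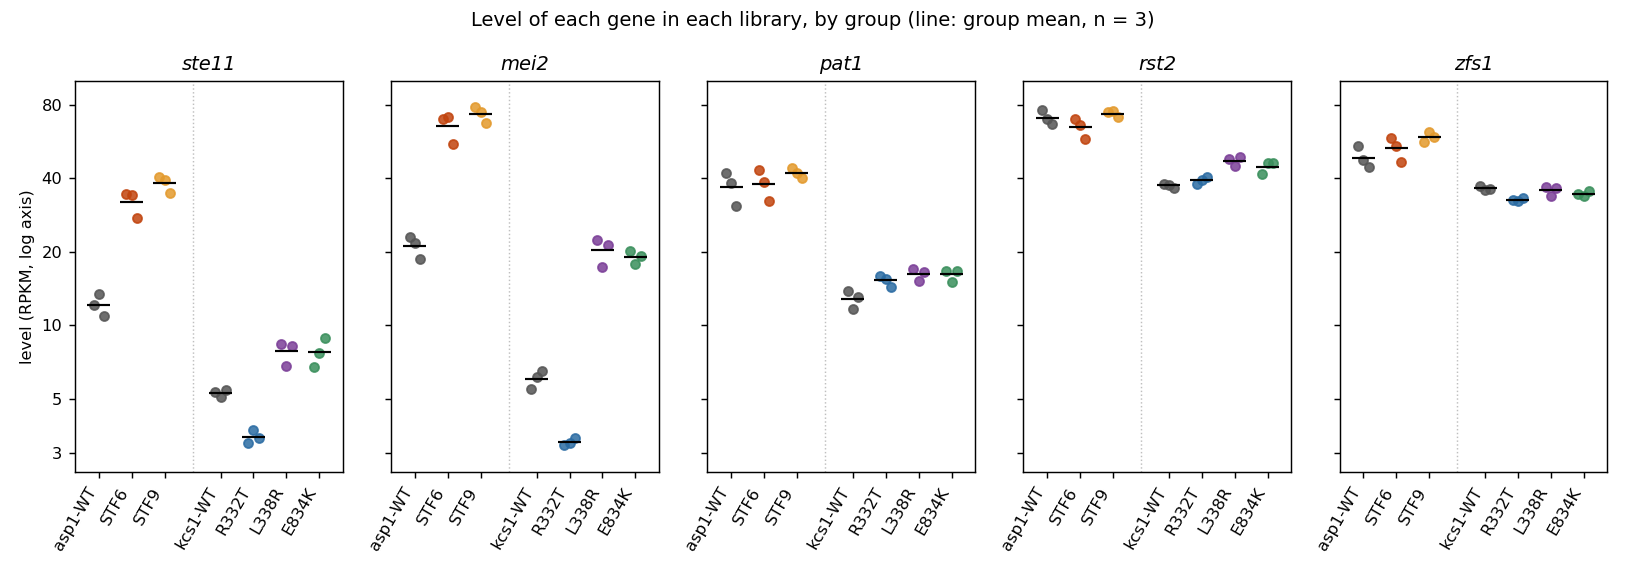
Level of each of the 5 genes in RPKM on a log axis, in each of 21 libraries by group (points) with the group mean (line, n = 3); the dotted line parts the asp1 experiment (ePMGT) from the kcs1 experiment (YES). The ste11 and mei2 points move between groups, while pat1, rst2 and zfs1 stay within a narrow band inside each experiment.

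The gene for the transcription factor, ste11, was higher in both STF strains, higher in kcs1-L338R and kcs1-E834K, and lower in kcs1-R332T. Normalized counts (counts scaled to a common library size within an experiment) of ste11 were 1327, 1463 and 1195 in the asp1-WT libraries, 3758, 3718 and 2992 in STF6, and 4432, 4283 and 3799 in STF9. Every STF library lay above every asp1-WT library, and STF9 libraries lay above all STF6 libraries. The group means were 1328 ± 134 (SD, n = 3), 3489 ± 431 and 4171 ± 331. By the edgeR quasi-likelihood test ste11 rose 2.63-fold in STF6 (log2 fold change 1.39, SE 0.11, adjusted p = 1.11e-06) and by 3.14-fold in STF9 (log2 1.65, SE 0.11, adjusted p = 2.68e-07). These are bulk cultures, so more cells that express a gene and more RNA per cell cannot be told apart. STF9 against STF6 gave a log2 difference of 0.26 with a 95% interval of 0.03 to 0.48, which did not pass over all loci (adjusted p = 0.211 by edgeR). With STF6 replicate 1 left out that difference was 0.31 and passed (adjusted p = 0.0364).

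In the kcs1 experiment the normalized counts of ste11 were 513, 490 and 522 in kcs1-WT, and 318, 361 and 331.7 in kcs1-R332T. They were 810, 657 and 792 in kcs1-L338R and 650, 740.5 and 852 in kcs1-E834K. The R332T libraries all lay below the wild type, the L338R and E834K libraries all lay above it, and the latter pair overlapped. ste11 fell by 0.59 on the log2 scale in R332T (SE 0.12, adjusted p = 0.00157 by edgeR) and rose 1.48-fold in L338R (log2 0.57, SE 0.11, adjusted p = 0.00268) and 1.47-fold in E834K (log2 0.56, SE 0.11, adjusted p = 0.00262). The alleles differed when tested directly, at -1.16 for R332T against L338R (SE 0.12, adjusted p = 9.05e-06) and -1.15 for R332T against E834K (SE 0.12, adjusted p = 1.46e-05). L338R and E834K differed by 0.01, with a 95% interval of -0.23 to 0.25.

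The gene for the RNA-binding protein, mei2, changed in the direction of ste11 in all 5 mutants. Its log2 fold changes were larger in size than those of ste11 in each, a difference between genes that was not tested. Normalized counts of mei2 were 2516, 2374 and 2043 in asp1-WT, 7648, 7827 and 6035 in STF6, and 8557, 8181 and 7381 in STF9. The wild-type libraries stood apart from all STF libraries, and the ranges of STF6 and STF9 overlapped. mei2 rose 3.10-fold in STF6 (log2 1.63, SE 0.11, adjusted p = 3.69e-07 by edgeR) and 3.48-fold in STF9 (log2 1.80, SE 0.11, adjusted p = 2.07e-07). STF9 against STF6 gave 0.17, with a 95% interval of -0.07 to 0.40 (adjusted p = 0.327).

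In the kcs1 experiment the normalized counts of mei2 were 531, 594 and 626 in kcs1-WT, and 314, 320 and 335 in kcs1-R332T. They were 2162, 1671 and 2063 in kcs1-L338R, and 1950, 1724 and 1858 in kcs1-E834K. No R332T library reached a wild-type value, and the lowest L338R library was above the highest wild-type library by more than the whole wild-type range. mei2 fell by 0.85 on the log2 scale in R332T (SE 0.10, adjusted p = 3.28e-05 by edgeR). It rose 3.37-fold in L338R (log2 1.75, SE 0.10, adjusted p = 3.57e-08) and 3.16-fold in E834K (log2 1.66, SE 0.10, adjusted p = 4.48e-08). Ordered by log2 fold change among coding loci with a mean count of at least 100, mei2 stood at place 2 of 4689 from the top in L338R and at place 3 of 4701 in E834K, and in R332T at place 31 of 4704 from the bottom. In STF6 and STF9 it stood at places 28 of 4811 and 22 of 4797 from the top. Between alleles, mei2 was 6.08-fold lower in R332T than in L338R (log2 -2.61, SE 0.10, adjusted p = 5.51e-10) and 5.71-fold lower than in E834K (log2 -2.51, SE 0.10, adjusted p = 8.93e-10). L338R against E834K gave 0.09, with a 95% interval of -0.10 to 0.29. The calls of ste11 and mei2 against wild type, and of R332T against each of the other alleles, held in every alternative run.

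**Figure D2:**
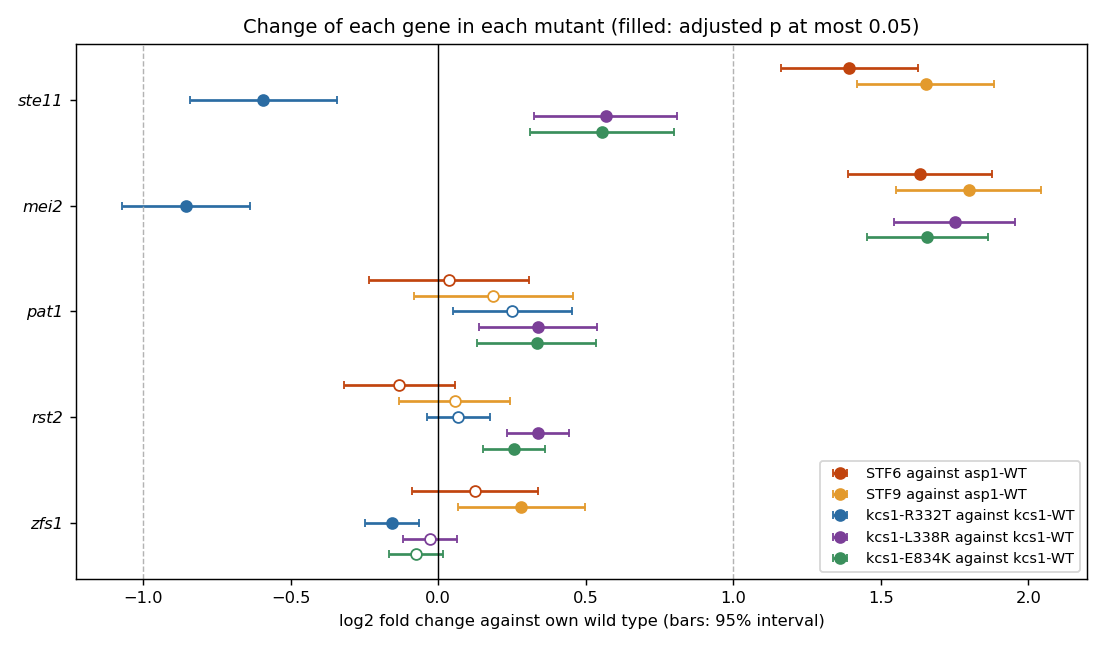
Log2 fold change of each gene in each mutant against its own wild type (points, n = 3 per group) with 95% intervals (bars); filled points have an adjusted p of at most 0.05 and the dashed lines mark a fold of 2. In kcs1-L338R and kcs1-E834K mei2 is at 1.75 and 1.66 and ste11 at 0.57 and 0.56, while in STF6 and STF9 both genes are between 1.39 and 1.80.

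Per exon length, the proportion of mei2 to ste11 differed between groups. In asp1-WT the level of mei2 was 21.1 ± 2.21 RPKM (SD, n = 3) and that of ste11 12.2 ± 1.23 RPKM, and in kcs1-WT these levels were 6.03 ± 0.50 and 5.27 ± 0.17 RPKM. The ratio of mei2 RPKM to ste11 RPKM was 1.89, 1.62 and 1.70 in the asp1-WT libraries, 2.03, 2.1 and 2.01 in STF6, and 1.92, 1.90 and 1.93 in STF9. The STF libraries lay above the wild type, with small gaps. In kcs1-WT the ratio was 1.03, 1.21 and 1.2. It was 0.983, 0.885 and 1.01 in R332T, 2.66, 2.53 and 2.59 in L338R, and 2.99, 2.32 and 2.17 in E834K. R332T was below and L338R and E834K were above every wild-type library. No test was run on this ratio. With 3 libraries against 3, an exact permutation test cannot go below p = 0.1.

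**Figure D3:**
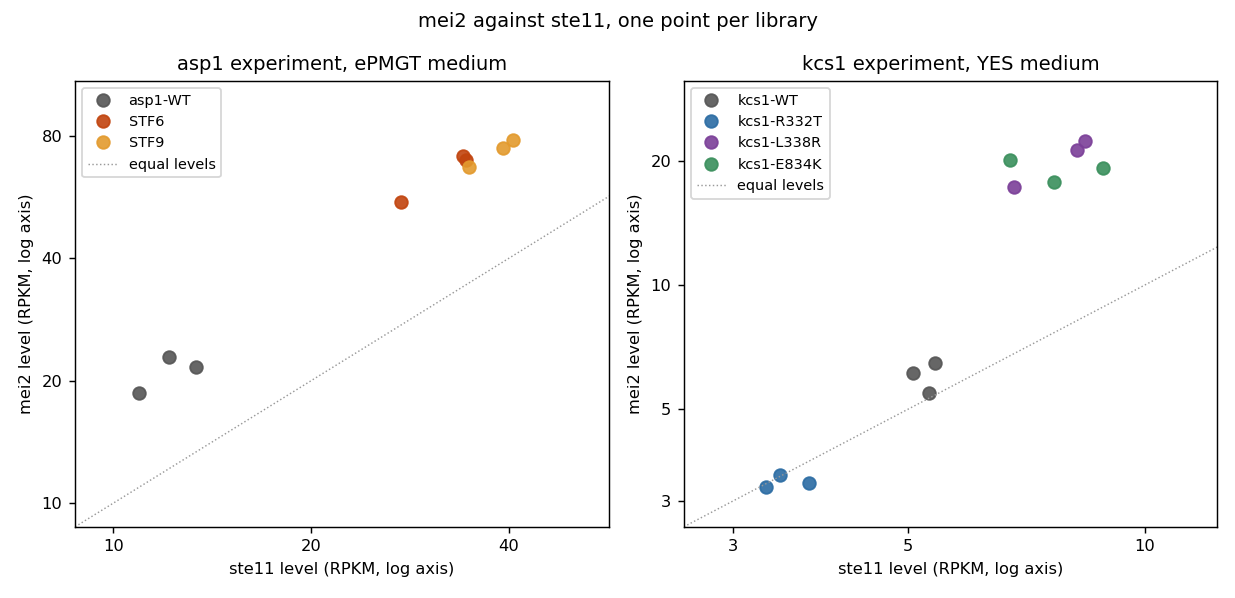
Level of mei2 against level of ste11 in RPKM, both on log axes, with 1 point per library; the dotted line marks equal levels. In the kcs1 experiment the wild-type and R332T libraries lie near that line at ratios of 0.885 to 1.21, and the L338R and E834K libraries lie above it at 2.17 to 2.99.

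The gene for the inhibitory kinase, pat1, changed little in any mutant. Normalized counts of pat1 were 1927, 1764 and 1414 in asp1-WT, 1983, 1777 and 1482 in STF6, and 2028, 1940 and 1843 in STF9, and the 3 groups overlapped. The log2 fold change was 0.04 in STF6 (95% interval -0.23 to 0.31) and 0.19 in STF9 (-0.08 to 0.46). In kcs1-WT the counts were 558, 474 and 528, against 649, 626 and 583 in R332T, 689, 613 and 671 in L338R, and 679, 612 and 679 in E834K. Every mutant library lay above every kcs1-WT library. pat1 rose 1.26-fold in both L338R (log2 0.34, SE 0.09, adjusted p = 0.0190 by edgeR) and E834K (log2 0.33, SE 0.09, adjusted p = 0.0165), and its log2 fold change in R332T was 0.25 (SE 0.09, adjusted p = 0.0512). Both calls ended without kcs1-WT replicate 2, at 0.27 in L338R (adjusted p = 0.0952) and 0.27 in E834K (adjusted p = 0.0815). They also ended without kcs1-L338R replicate 3 (0.32), kcs1-E834K replicate 1 (0.31) or kcs1-E834K replicate 3 (0.31).

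The gene for the activator, rst2, did not pass in either STF strain and rose slightly in 2 of the kcs1 alleles. Normalized counts of rst2 were 7717, 7100 and 6806 in asp1-WT, 7112, 6747 and 5889 in STF6, and 7577, 7663 and 7231 in STF9. These groups overlapped with the wild type, with log2 fold changes of -0.13 in STF6 (95% interval -0.32 to 0.06) and 0.06 in STF9 (-0.13 to 0.24). In the kcs1 experiment counts were 3397, 3380 and 3285 in wild type, 3392, 3519 and 3643 in R332T, 4310, 4036 and 4375 in L338R, and 3754, 4141 and 4127 in E834K. L338R and E834K stood above the wild type and R332T overlapped with it. rst2 rose 1.26-fold in L338R (log2 0.34, SE 0.05, adjusted p = 2.54e-04 by edgeR) and 1.19-fold in E834K (log2 0.26, SE 0.05, adjusted p = 0.00176), against 0.07 in R332T (SE 0.05, adjusted p = 0.284). R332T was lower than L338R (log2 -0.27, SE 0.05, adjusted p = 0.00121) and than E834K (log2 -0.19, SE 0.05, adjusted p = 0.0204). The last call ended without R332T replicate 1 (-0.16) or 2 (-0.19), or without E834K replicate 2 (-0.16) or 3 (-0.16).

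The gene for the mRNA-binding protein, zfs1, was slightly higher in STF9 and slightly lower in kcs1-R332T. Normalized counts of zfs1 were 6736, 5915 and 5550 in asp1-WT, 7296, 6739 and 5816 in STF6, and 7022, 7732 and 7379 in STF9. STF6 overlapped with the wild type (log2 0.12, 95% interval -0.09 to 0.34). In STF9 zfs1 rose 1.22-fold (log2 0.28, SE 0.10, adjusted p = 0.0438 by edgeR). That call ended without asp1-WT replicate 2 (0.26, adjusted p = 0.127) or 3 (0.17, adjusted p = 0.253), without STF9 replicate 1 (0.32), 2 (0.23) or 3 (0.27), with asp1-WT replicate 1 as the only wild type (0.08, adjusted p = 0.742), and with another scaling (0.30, adjusted p = 0.0688). In kcs1-WT the counts were 4109, 3942 and 3978, against 3593, 3541 and 3659 in R332T, 4062, 3709 and 4027 in L338R, and 3787, 3728 and 3909 in E834K. R332T and E834K lay below every wild-type library and L338R overlapped with them, and E834K, at -0.07 (adjusted p = 0.22), did not pass. zfs1 fell by 0.16 on the log2 scale in R332T (SE 0.04, adjusted p = 0.0133 by edgeR), a call that ended without kcs1-WT replicate 1 (-0.14, adjusted p = 0.0583) or R332T replicate 2 (-0.15, adjusted p = 0.0519). R332T against L338R gave -0.13 (SE 0.04, adjusted p = 0.0336), and that call ended without any 1 R332T library or without L338R replicate 1 or 3, at -0.14 to -0.10.

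Counted over the 5 genes at an adjusted p of at most 0.05, 2 were higher in STF6, where 16.6% of the 6144 loci tested were higher, and 3 were higher in STF9 (18.2% of loci). None was lower in either (11.6% and 15.1% of loci). In kcs1-R332T 3 of the 5 were lower (19.8% of 6093 loci) and 0 higher (14.3%). In L338R 4 were higher (10.9%) and 0 lower (11.5%), and in E834K 4 were higher (12.4%) and 0 lower (15.4%). For R332T against L338R 4 were lower (19% of loci), and for R332T against E834K 3 were lower (9.88%). With a fold of at least 2 as well, ste11 and mei2 remained in STF6 and STF9 (1.51% and 1.65% of coding loci higher) and mei2 in L338R and E834K (0.323% and 0.424%). No member was lower by that fold against wild type (1.46%, 1.44%, 0.343%, 0.424% and 0.424% of coding loci from STF6 to E834K), and ste11 and mei2 were lower by it in R332T against L338R (0.424%) and against E834K (0.363%). None was higher in STF9 against STF6 by that fold (0.0401%). In either direction 28.2% of loci were called in STF6, 33.3% in STF9, 34.1% in R332T, 22.4% in L338R, 27.8% in E834K, 36.6% for R332T against L338R and 13.9% for R332T against E834K. The last comparison had 4.05% of loci higher, and none of the 5. None of the 5 was called by edgeR in STF9 against STF6 (0.0814% of loci, 5 in all) or in L338R against E834K. DESeq2 gave no adjusted p for any of the 5 in the first of these, nor for ste11, mei2 and pat1 in the second. With the replicate number as a block, edgeR called ste11 in STF9 against STF6 (adjusted p = 0.0461). At an unadjusted p under 0.05 STF9 against STF6 had 1374 loci, ste11 among them. The latter pair had 0 loci called by edgeR, 893 at an unadjusted p under 0.05 and 20 by DESeq2. The 2 STF comparisons share the asp1-WT libraries and the 3 kcs1 comparisons share kcs1-WT, so their counts are not independent.

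Genes that Ste11 is known to bind or that act in the pheromone response were mostly higher in the STF strains and mostly did not pass in the kcs1 alleles. Of 18 tested, 11 rose and 1 fell in both STF6 (median log2 fold change 0.62, against 0.06 over all loci) and STF9 (0.70, against -0.03). Over all loci tested 16.6% were higher and 11.6% lower in STF6, and 18.2% and 15.1% in STF9. In R332T 1 rose and 3 fell, beside 14.3% of all loci higher and 19.8% lower. In L338R 3 rose and 0 fell (10.9% and 11.5% of all loci), and in E834K 4 rose and 1 fell (12.4% and 15.4%). The medians were -0.14, -0.01 and 0.10. With asp1-WT replicate 1 as the only wild type, a fit in which that lone library is assumed to vary like the other groups and fewer samples enter, 7 rose in each STF strain. The 3 rises in L338R became 1 without kcs1-WT replicate 2 or 3. The single rise in R332T was lost without any 1 library of R332T or kcs1-WT. spk1, the MAP kinase gene of the pheromone pathway, had 867 ± 94.3 normalized counts in asp1-WT (SD, n = 3) and rose to 2959 ± 440 (STF6) and 3768 ± 177 (STF9) (log2 1.77 and 2.12, adjusted p = 2.22e-07 and 4.84e-08 by edgeR). Against 590 ± 18.5 in kcs1-WT it stood at 480 ± 13.0 in R332T, at 936 ± 98.7 in L338R and at 958 ± 30.7 in E834K, a fall of 0.30 and rises of 0.66 and 0.70 on the log2 scale. rgs1, for a regulator of G-protein signaling, rose in STF6 (1.70) and STF9 (1.79) and fell by 0.56 in R332T. It was at -0.13 and -0.16 in L338R and E834K, which did not pass. map1, a P-cell transcription factor gene, rose by 1.73 and 1.54 in STF6 and STF9, and by 0.84 in E834K.

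Sums of P-cell and meiosis markers were higher in both STF strains, and in the kcs1 alleles they did not follow ste11 and mei2 throughout. The summed normalized count of map1, map2 and map3, the P markers with a locus here, was 1359 to 1454 over asp1-WT libraries, 3504 to 4433 over STF6 and 4551 to 4965 over STF9. Over kcs1-WT libraries it was 529 to 635, with 489 to 583 in R332T, 607 to 638 in L338R and 663 to 706 in E834K, so that only E834K stood apart from the wild type. The 8 M markers summed to 2820 to 2984 in asp1-WT, 2085 to 2373 in STF6 and 2176 to 2307 in STF9, with mam1 giving most of the sum and falling by 0.63 and 0.55 in STF6 and STF9. In the kcs1 experiment the M sums were 1566 to 1737 in wild type, 1636 to 1767 in R332T and 1517 to 1650 in L338R, with E834K below the wild type at 1482 to 1560. The 9 meiosis and sporulation markers summed to 625 to 732 in asp1-WT, 790 to 966 in STF6 and 813 to 932 in STF9, and to 404 to 453 in kcs1-WT against 492 to 513 (R332T), 513 to 577 (L338R) and 549 to 586 (E834K), with none of them at 0 in a group. All 3 alleles lay above kcs1-WT, R332T included, in which ste11 and mei2 fell. Some of these genes are themselves Ste11 targets, and the part of other cells in the ste11 and mei2 levels was not tested. Among the 8 M markers, mfm1, an M-factor gene, went against the sum in the STF strains. It rose by 1.65 in STF6 and 1.53 in STF9 from a mean of 14.7 normalized counts in asp1-WT. In L338R and E834K mfm1 rose by 2.09 and 2.21 from a mean of 2.28 normalized counts in kcs1-WT. Its near-identical copies mfm2 and mfm3 make its count uncertain.

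TTCTTTGTT lay in the 300-base window of 9 of the 19 pheromone genes, a list that holds known targets of Ste11, against 2.02% of all windows. Of the 8 tested genes with the motif 6 rose in STF6 and 6 in STF9, against 5 of the 10 without it in each. In L338R 2 of the 8 with the motif rose and 0 fell, in E834K 3 rose and 1 fell, and in R332T 0 rose and 3 fell. Of the 10 without it 1 rose and 0 fell in each kcs1 allele.

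**Figure D4:**
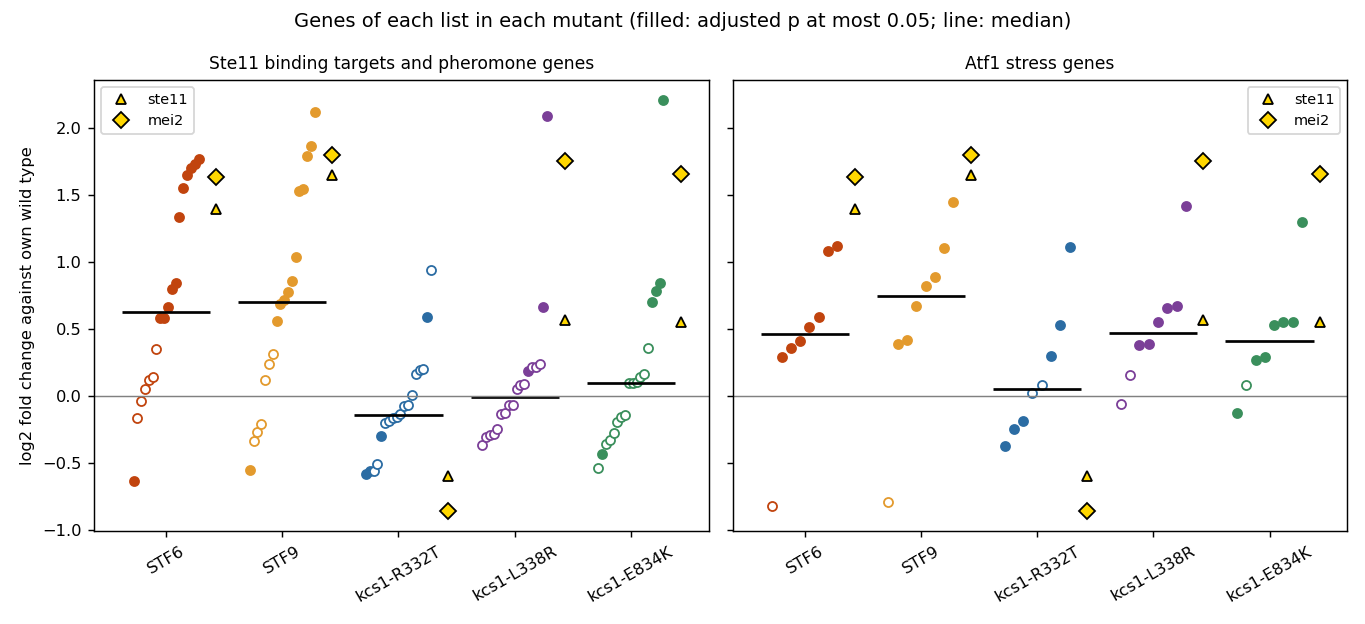
Log2 fold change against own wild type of each gene (points) of the pheromone list, 18 genes, and of the list of Atf1 stress genes, 8 genes, in each of the 5 mutants; filled points have an adjusted p of at most 0.05, lines are medians, and ste11 and mei2 are drawn beside each column. The medians of the pheromone list are 0.62 and 0.70 in the STF strains and lie between -0.14 and 0.10 in the kcs1 alleles, while those of the stress list are 0.46, 0.75, 0.05, 0.47 and 0.41 from STF6 to E834K.

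Most stress genes under Atf1 rose in STF6, STF9, L338R and E834K. Of 8 tested, 7 rose in STF6 (16.6% of all loci were higher) and 7 in STF9 (18.2%). In L338R 6 rose (10.9%), in E834K 6 rose and 1 fell (12.4% higher, 15.4% lower), and in R332T 3 rose and 3 fell (14.3% and 19.8%). In a fit of only the 2 groups compared, 4 rose in STF6. hsp9, a heat shock protein gene, rose by 1.12 and 1.45 in STF6 and STF9 and by 1.42 and 1.30 in L338R and E834K (log2, adjusted p at most 6.12e-06 by edgeR), and was at 0.08 in R332T, which did not pass. gst2, a glutathione transferase gene, rose in all 5 mutants, by 1.08 in STF6, 1.11 in STF9, 1.11 in R332T, 0.55 in L338R and 0.53 in E834K. Of 10 genes of the stress MAP kinase pathway itself, 1 rose in STF9, 6 fell in R332T, 3 rose and 2 fell in L338R, and 1 rose and 1 fell in E834K. In STF6 0 of the 10 passed by edgeR, with 2 at an unadjusted p under 0.05 and 1 called by DESeq2. With asp1-WT replicate 1 as the only wild type library, 2 and 4 of the Atf1 stress genes rose in STF6 and STF9.

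Genes listed for the cAMP-PKA and TOR pathways changed by less than 2-fold where called. Neither list was divided by whether a gene holds the switch off or favours it. The shares of all loci to set beside the counts here and in the next 2 paragraphs are, for higher and then lower, 16.6% and 11.6% in STF6, 18.2% and 15.1% in STF9, 14.3% and 19.8% in R332T, 10.9% and 11.5% in L338R, and 12.4% and 15.4% in E834K. Of 10 cAMP-PKA genes, 2 rose and 2 fell in STF6 and 2 rose and 1 fell in STF9, while 3 fell in R332T, 1 rose and 3 fell in L338R, and 4 fell in E834K. Of 11 TOR genes, 2 rose and 4 fell in STF6, 2 rose and 3 fell in STF9, and 6, 2 and 6 fell in R332T, L338R and E834K. No gene of these 2 lists reached a fold of 2 in a mutant against wild type. Of 12 RNA-binding and transcription factors known to act on ste11 or its targets, 1 rose and 3 fell in STF6 and 2 rose and 1 fell in STF9, and 4, 3 and 6 fell in R332T, L338R and E834K. Among the latter, msa1, for an RNA-binding protein that restrains sexual differentiation, fell by 1.08 in E834K (SE 0.09, adjusted p = 1.13e-06 by edgeR). Of 9 other transcription factors that control ste11, 2 rose in STF9, 5 fell in R332T, 1 rose and 1 fell in L338R, and 1 rose and 2 fell in E834K. In STF6 0 of the 9 passed by edgeR, with 4 at an unadjusted p under 0.05 and 1 called by DESeq2.

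Among the partners of Mei2 and Pat1, the noncoding RNA SPNCRNA.103 (meiRNA, which Mei2 binds) rose in both STF strains, where its mean was 68.2 (STF6) and 56.7 (STF9) normalized counts against 13.7 in asp1-WT (log2 2.30 and 2.02, adjusted p = 1.97e-04 and 5.70e-04 by edgeR). It also rose from 5.61 in kcs1-WT to 14.3 in R332T (log2 1.36, adjusted p = 0.0489) and 14.8 in E834K (log2 1.43, adjusted p = 0.0461), with few reads. Of the 10 genes of that list 2 rose in STF6 and 3 in STF9, 1 rose and 3 fell in R332T, and 3 rose and 1 fell in both L338R and E834K. Of 12 meiosis and sporulation genes 6 rose in STF6 and 5 in STF9, led by spn6, a septin gene of the forming spore, at 2.55 and 2.1 (log2). Of the 11 tested in the kcs1 experiment 2 rose in R332T, 2 rose and 1 fell in L338R, and 3 rose and 1 fell in E834K. DESeq2 called 2, 1 and 1 of the 11 in R332T, L338R and E834K. In L338R and E834K spn6 rose by 1.28 and 1.28 (adjusted p = 0.0470 and 0.0389 by edgeR) from a mean of 11.8 normalized counts in kcs1-WT. In the same alleles spo5, for an RNA-binding protein of meiosis, fell by 1.61 and 1.25 (adjusted p = 0.0206 and 0.0423 by edgeR). In STF6 and STF9 spo5 rose by 2.06 and 1.95. Mean counts of spo5 were under 32 in every group.

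The genes that Rst2 acts on in glucose starvation did not move as a group. Of 5 tested, 1 rose and 2 fell in STF6, in STF9 and in R332T 1 rose and 2 fell as well, and 1 rose and 1 fell in L338R and in E834K. ght5, a hexose transporter gene with close paralogs, fell by 2.57 in STF6 and 2.23 in STF9 (log2) and rose by 1.76, 2.31 and 2.46 in R332T, L338R and E834K. fbp1, for the gluconeogenic fructose bisphosphatase, rose by 1.05 and 1.01 in the STF strains. Of 3 known mRNA targets of Zfs1, 1 rose and 1 fell in both STF strains and 1 fell in each kcs1 allele, and none reached a fold of 2. Among 7 genes of nitrogen starvation, 2 rose and 2 fell in STF6, 1 rose and 2 fell in STF9 and in R332T, and 2 rose and 2 fell in L338R and in E834K. isp4, an oligopeptide transporter gene, fell by 2.28, 1.23 and 1.55 in the 3 kcs1 alleles, and the amino acid permease gene aat1 fell by 1.97 and 1.45 in STF6 and STF9. per1, an amino acid transporter gene, fell by 1.04 in STF6, and isp5, another such gene, rose by 1.04 in E834K.

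Loci beside ste11 and mei2 on the chromosome did not all move with them. rse1 (SPNCRNA.111), a noncoding RNA before ste11 that is known to repress it in cis, was at 1827 ± 83.3 normalized counts in asp1-WT (SD, n = 3), 1648 ± 192 in STF6 and 1941 in STF9, and did not pass in either strain (log2 -0.15 and 0.09). In the kcs1 experiment rse1 counts were 1455, 1300 and 1280 in wild type, 1847, 1791 and 1787 in L338R, and 1730, 1727 and 1786 in E834K. rse1 rose 0.43 in L338R (SE 0.05, adjusted p = 9.13e-05 by edgeR) and 0.38 in E834K (adjusted p = 2.47e-04), and was at 0.11 in R332T, which did not pass. ppk25, a kinase gene on the other side of ste11, fell by 0.46 in STF6, 0.39 in STF9, 0.15 in L338R and 0.14 in E834K. Next to mei2, SPNCRNA.993 runs on the opposite strand and covers 144 of the 300 bases printed above. A further locus, SPNCRNA.4033, runs on the strand of mei2 and covers 110 of these bases. SPNCRNA.993 rose in STF6 (log2 1.25, adjusted p = 0.00121), STF9 (1.43, adjusted p = 4.10e-04) and E834K (1.61, adjusted p = 0.00364), and was at 0.98 in L338R and -0.18 in R332T, which did not pass. Its counts were 39.3 to 50.2 normalized counts in asp1-WT and 89.2 to 142 in the STF libraries. SPNCRNA.993 and mei2 share no bases in ASM294v3. The 3 loci that overlap mei2 there, SPNCRNA.4030, SPNCRNA.4031 and SPNCRNA.4032, lie on the opposite strand, and reads from them would count for mei2 if the counting did not use strand, which the sources used here do not state. Overlapping loci are also annotated for ste11 (SPNCRNA.6380 and SPNCRNA.6381), pat1 (SPNCRNA.5298), rst2 (fsv1 and SPNCRNA.2573) and zfs1 (SPNCRNA.6151 and SPNCRNA.6152). Their part in the counts of these genes was not tested. The coding neighbour grp1 did not pass in any mutant.

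Of the loci beside the other 3 genes, ubp11, a ubiquitin hydrolase gene next to pat1, rose by 0.73, 0.84 and 0.92 in R332T, L338R and E834K and fell by 0.49 in STF6. mug124, on the other side of pat1, fell by 0.62 in STF6 and rose by 0.42 in R332T. cdc48, an essential ATPase gene before rst2, rose by 0.32 and 0.49 in STF6 and STF9, and fsv1, whose annotation overlaps rst2, did not pass in any mutant. msp1, a mitochondrial dynamin gene beside zfs1, rose by 0.25 and 0.22 in STF6 and STF9 and fell by 0.26 in R332T. SPNCRNA.1604, on the other side of zfs1, rose by 0.98, 0.89 and 1.11 in R332T, L338R and E834K.

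Across all 21 libraries, each set against its own wild-type mean on the log2 scale, the 3 of 4682 coding loci most like ste11 were cfh2 (r = 0.985), spk1 (0.982) and tsp0 (0.980). cfh2 is a chitin synthase regulatory factor gene, and tsp0 is annotated as a TspO-like protein gene. The 3 most like mei2 were ctt1, the catalase gene (r = 0.945), SPACUNK4.17, a putative dehydrogenase gene (0.944), and hsp9 (0.942). ste11 came at place 21 in likeness to mei2, and mei2 at place 266 in likeness to ste11, with r = 0.865 over 21 libraries, 0.996 over the 9 of the asp1 experiment and 0.961 over the 12 of the kcs1 experiment. Against ste11, zfs1 gave 0.793 over all 21 libraries (0.716 in the asp1 and 0.59 in the kcs1 experiment), pat1 0.0752 (0.488 and 0.378) and rst2 -0.0711 (0.0375 and 0.778). The libraries fall into groups and share their wild types, so these r values describe the libraries and were not tested. spk1 holds 3 TTCTTTGTT sites in its 300-base window and cfh2, tsp0, ctt1, SPACUNK4.17 and hsp9 hold none, while cfh2, tsp0 and ctt1 hold 1 TGACGT each.

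Levels of 1 gene from each set are given here. tsp0 was at 734 ± 111 normalized counts in asp1-WT (SD, n = 3), 3169 ± 312 in STF6 and 4160 ± 282 in STF9, and at 1151 ± 114 in kcs1-WT. In R332T tsp0 was at 883 ± 78.7, in L338R at 2318 ± 179 and in E834K at 2199 ± 98. ctt1 was at 1990 ± 413, 3007 ± 500 and 3684 ± 223 in the asp1 experiment and at 3839 ± 130, 2962 ± 216, 6069 ± 233 and 5636 ± 233 in the kcs1 experiment, in the same order of groups. Both genes passed against wild type in all 5 mutants and in the direction of ste11 and mei2. They were picked by likeness to ste11 or mei2 in these same libraries, so that direction is no separate support. In R332T the others most like mei2, SPACUNK4.17 (-0.24) and hsp9 (0.08), did not pass. The others most like ste11, cfh2 (-0.22) and spk1 (-0.30), did.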

How the data were processed

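The authors mapped 51-base paired reads with HISAT2 2.1.0 to genome ASM294v2 and used HTSeq 0.10.0 to count reads on exons of each gene. The strand setting is not given in the sources used here, and the paper and the labels name different library kits. The deposited count tables hold whole reads per locus for 9 libraries of the asp1 experiment and 12 of the kcs1 experiment, and 0 columns were left unmapped. The authors' DESeq2 tables of fold changes and p-values were not used. All 5 genes, the gene lists and the tests were chosen with earlier results of these data known.

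Names, exon lengths and neighbours came from ASM294v3, in which 6836 of 6988 loci matched. The deposited files carry no coordinates, and those printed are from ASM294v3. All 51-base words of the 5 genes were unique in that genome. The tests used edgeR 4.0.16 and limma 3.58.1 under R 4.3.3, and alternatives used DESeq2 1.42.0. Tables and plots used Python 3.11.15, pandas 2.3.3, numpy 2.4.6 and matplotlib 3.10.9. Each experiment was fitted alone on all its groups, after filterByExpr (6144 and 6093 loci kept) and TMM scaling, with glmQLFit and glmQLFTest, a prior count of 0.125 and the Benjamini-Hochberg adjustment within a comparison. A call is an adjusted p of at most 0.05. The SE is the log2 fold change over the square root of F.

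Normalized counts are counts over the effective library size times the geometric mean size of the experiment. RPKM used exon lengths of ASM294v3, so levels depend on annotated ends. The labels do not state that replicate numbers pair the samples, and the main fits did not pair them. No replicate pair was a duplicate, with a chi-square per degree of freedom of at least 3.28. The test was first run on simulated data.

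Named genes are the 5 genes, their neighbours, genes of the fixed lists with a fold of at least 2 (up to 4 per list and comparison, by fold), and the 3 loci most like ste11 and mei2. mam1, mfm2, mfm3, mat1-Mc, mat1-Mi and map2, named as mating-type markers, were chosen after their values were seen. Alternatives were another test, scaling, filter or set of groups, a replicate block and each replicate left out. A fit with asp1-WT replicate 1 as the only wild type was chosen after seeing the data.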

Additional observations from a re-analysis of the deposited data

Results flagged for a closer look

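Some of these genes differed between the kcs1-R332T strain and the kcs1-L338R and kcs1-E834K strains. This was tested directly with the edgeR quasi-likelihood test over all loci. Each allele was 1 strain, so allele and strain cannot be told apart. For R332T against L338R the log2 difference was -1.16 for ste11, -2.61 for mei2, -0.27 for rst2 and -0.13 for zfs1. For R332T against E834K it was -1.15 for ste11, -2.51 for mei2 and -0.19 for rst2. Over all loci 36.6% were called in the former comparison and 13.9% in the latter. The zfs1 call held in 5 of 11 alternatives, and the rst2 call against E834K in 7 of 11. pat1 passed in neither comparison, and none of the 5 genes passed in L338R against E834K. In ste11 and mei2 all 3 R332T libraries lay below kcs1-WT and all 6 libraries of the other alleles lay above it. The alleles share the kcs1-WT libraries, which the direct tests do not use as a reference.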

How the results depend on the processing

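Of 505 alternative values for the 5 genes, 466 kept their side of the threshold, 25 lost and 6 gained a call, and 8 DESeq2 values had no adjusted p. In 15 values, of 7 comparisons of a gene, the sign was opposite to that reported, and 0 of these passed under either setting. With other scaling (RLE) zfs1 in STF9 was at 0.30, and with asp1-WT replicate 1 as the only wild type at 0.084. In a fit of only the 2 groups compared, pat1 was at 0.25 in R332T (adjusted p = 0.0191) and 0.35 in L338R (adjusted p = 0.1003), and zfs1 at -0.13 for R332T against L338R (adjusted p = 0.0935). DESeq2 gave pat1 0.25 in R332T (adjusted p = 0.0399).

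The labels state no pairing by replicate number. Same-numbered libraries did not all deviate together, but their median r was above that of other pairs. In the asp1 experiment r was 0.0071 to 0.756, with a median of 0.13 against -0.0754 for other pairs. In the kcs1 experiment r was -0.247 to 0.681, with a median of 0.224 against -0.128. With the replicate number as a block ste11 gave 0.26 for STF9 against STF6 (adjusted p = 0.0461) and pat1 0.26 in R332T (adjusted p = 0.0329). The block changed no other call of the 5 genes, and it moved the called loci from 5 to 424 for STF9 against STF6 and from 0 to 45 for L338R against E834K.

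Leaving out 1 replicate gave 0.17 to 0.36 for zfs1 in STF9 and for ste11 in STF9 against STF6, 0.12 to 0.25 for rst2 in STF9 against STF6, -0.17 to -0.14 for zfs1 in R332T, 0.27 to 0.39 for pat1 in L338R, 0.27 to 0.38 for pat1 in E834K, -0.17 to -0.10 for zfs1 in R332T against L338R, and -0.23 to -0.16 for rst2 in R332T against E834K. The cause of these changes was not tested.

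Counts of loci called moved both ways. The fit with asp1-WT replicate 1 as the only wild type is left out of these counts. In STF6 1731 were called as reported, 1185 to 2298 with 1 replicate left out, and up to 2320 in other alternatives. In STF9 these were 2046, 1360 to 1950, and up to 3072 (2 groups). STF9 against STF6 had 5, then 2 to 2121 (without STF6 replicate 1), with 261 by DESeq2. R332T had 2075, then 1334 (without kcs1-WT replicate 1) to 3117 (2 groups). L338R had 1365, then 629 (2 groups) to 1771 with 1 replicate left out. E834K had 1696, then 1128 (without kcs1-WT replicate 1) to 2275 in another alternative. R332T against L338R had 2231, then 1136 (2 groups) to 3010 with 1 replicate left out. R332T against E834K had 849, then 498 (without E834K replicate 1) to 2065 (2 groups). L338R against E834K had 0, and up to 603 (without L338R replicate 2). Spearman coefficients were 0.964, 0.977 and 0.968 for the 3 loci most like ste11 and 0.894, 0.857 and 0.878 for those most like mei2. With 3 libraries a group, smaller changes of pat1, rst2 and zfs1 are limited by the width of the intervals given with them.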
